A study of Papio hamadryas with 4 samples.

Results

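Kidney biopsies of baboons (Papio hamadryas) with a high SLC phenotype (HSLC) were compared after 6 weeks on a high sodium diet and after 6 weeks on a low sodium diet. The comparison uses 2 of the 4 arrays of the series, 1 for HSLC on high sodium and 1 for HSLC on low sodium, picked by their titles. The other 2 arrays, 1 for the normal SLC phenotype (NSLC) on high sodium and 1 for NSLC on low sodium, are given beside them. No genetic manipulation or drug is named in the labels, which leave the letters SLC unexplained, and in hypertension research they usually stand for sodium-lithium countertransport in red blood cells. The number of animals behind each array, their ages and the order of the diets are not stated by the labels. With 1 array a side there was no replicate, so every difference below is a ratio of 1 array over another, with no error and no test, and array and diet cannot be told apart.

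The kidney adjusts sodium balance along the nephron. The proximal tubule reabsorbs the bulk of filtered sodium together with glucose, phosphate, amino acids and organic acids, and burns fatty acids to do so. The thick ascending limb, the distal convoluted tubule and the collecting duct then set what is excreted, under control of aldosterone, the WNK kinases and local peptides such as kinins. Injured tubule cells lose these transport programmes and make secreted proteases, adhesion proteins and complement factors, while fibroblasts lay down collagen and leukocytes enter the interstitium.

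The arrays carry probes for human genes. Values are deposited signal intensities in arbitrary units, and ratios are log2 ratios of high over low sodium after background correction and normalization. The printed intensities are not normalized, and bright probes read higher on the NSLC high sodium array, with a 99th percentile of 3298 against 2320.0 on the NSLC low sodium array, so a pair of NSLC readings can run opposite to its normalized ratio. A gene counted as detected when its intensity was above the median of its array, which was 68.2 for HSLC on high sodium and 72.1 for HSLC on low sodium. Of 18774 genes, 12481 were detected on both HSLC arrays. A ratio of 2-fold or more in either direction is a rule of size, not a test.

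The HSLC low sodium array stood apart from the other 3 by its skeletal muscle transcripts. Genes of 3 skeletal muscle lists made up 0.385% of the signal above the median on the high sodium array of HSLC and 0.914% on its low sodium array, against 0.384% and 0.368% on the same arrays of NSLC. Of 113 such genes on the array, 62 were detected on the high sodium and 90 on the low sodium array of HSLC, against 60 and 72 on those of NSLC. Muscle genes are therefore reported apart, at the end, and the kidney results leave the listed genes out, though MYBPH, PDLIM7 and DHRS7C, which muscle also expresses, lie outside the lists and stay among the kidney genes. Kidney markers were present, with 36 of 41 proximal tubule genes and 12 of 15 podocyte genes on the array detected in both HSLC samples. Outside the muscle lists the HSLC low sodium array lay near the NSLC low sodium array. The SD of the log2 differences between those 2 arrays over 11852 genes was 0.16, against 0.24 for high against low sodium in HSLC. The 2 high sodium arrays lay further apart, with an SD of 0.23, close to that of the HSLC diets. Of these genes, 14 were past 2-fold between the low sodium arrays, 55 between the high sodium arrays and 75 between the HSLC diets.

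Over all genes detected, 66 were 2-fold or more higher (0.529%) and 29 lower (0.232%) on high sodium in HSLC. Outside the muscle lists, 66 of 12420 genes were 2-fold or more higher on high sodium in HSLC (0.531%) and 11 were 2-fold or more lower (0.0886%). The median log2 ratio over all 12420 was 0.01 with an SD of 0.24 across genes, and 6563 lay above 0. Of these 66 and 11 genes, 10 and 2 had 2 or more detected probes, and with their probes averaged 3 of the 10 and 0 of the 2 kept 2-fold. With a background offset of 16 in place of 50 the higher genes numbered 119, and with no normalization or median scaling the lower genes numbered 5. At 1.5-fold the counts were 285 higher (2.29%) and 140 lower (1.13%). In NSLC, 62 of 12132 genes were 2-fold higher (0.511%) and 18 were lower (0.148%). Of the 66 genes higher in HSLC, 63 had a ratio above 0 in NSLC, as did 6858 of the 12132 genes. Of the same 66, 34 were also 2-fold higher in NSLC. When the NSLC low sodium array replaced the HSLC low sodium array, 61 remained 2-fold higher. Both ratios hold the HSLC high sodium array, by which these genes were picked, so the 61 cannot show whether their values on it would repeat. Of the 11 lower genes, 9 had a ratio below 0 in NSLC, 1 was 2-fold lower there, and 3 were 2-fold lower against the NSLC low sodium array.

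**Figure D1:**
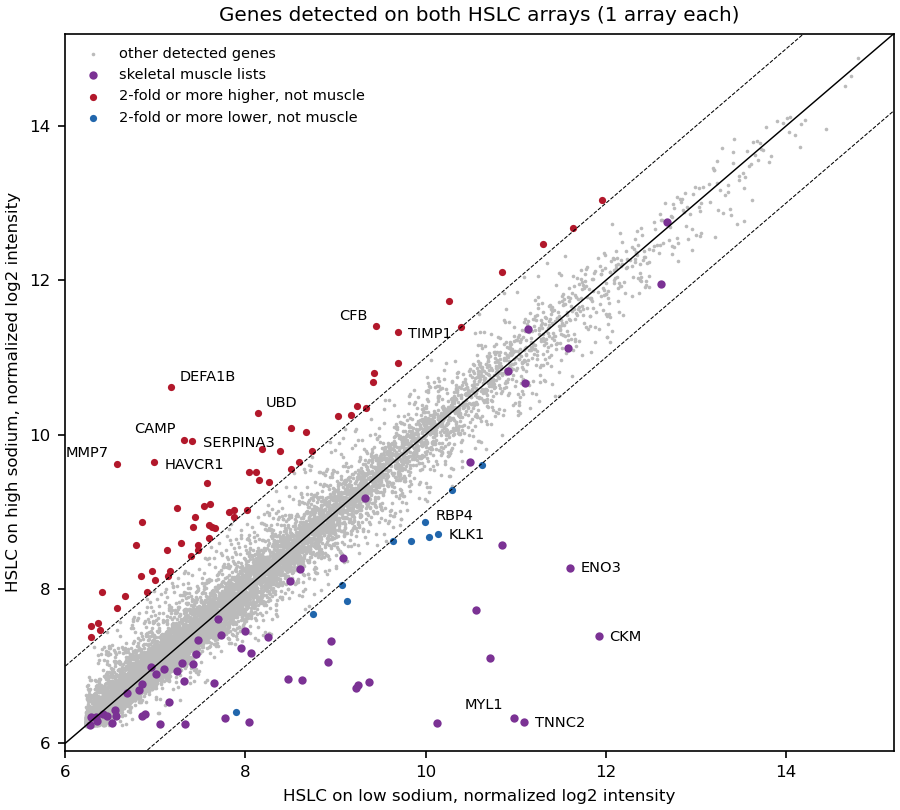
Normalized log2 intensity in HSLC on high sodium (vertical axis) against HSLC on low sodium (horizontal axis), 1 point per gene detected on both arrays, with the solid line at equality and dashed lines at 2-fold. Red points are the 66 genes and blue points the 11 genes 2-fold higher or lower outside the muscle lists, and purple points are the 61 detected genes of the skeletal muscle lists, of which 18 lie below the lower dashed line.

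Genes known to mark injured tubules stood higher on high sodium. Of 27 detected genes of this list, 22 had a ratio above 0 and 7 were 2-fold higher, against 0.531% of all genes, with a median log2 ratio of 0.63 against 0.01 for all genes. MMP7, the secreted metalloprotease matrilysin, read 787 in HSLC on the high sodium diet and 92.0 on the low sodium diet, and 984 and 73.2 on the high and low sodium arrays of NSLC, the lowest of these readings being under its array median of 77.7. Both high sodium arrays were far above both low sodium arrays, and the HSLC ratio was 8.28-fold (log2 3.05). HAVCR1, the phagocytic receptor KIM-1 of injured proximal tubule cells, read 799 and 121 in HSLC on high and low sodium, a log2 ratio of 2.66, and 739 and 96.0 in NSLC. SOX4, a transcription factor of the developing nephron, read 543 on high and 183 on low sodium (log2 1.49). The keratin KRT19 read 1291 and 543, the actin-binding TMSB10 read 6354 and 2867, and the phospholipid-binding ANXA1 read 269 and 122. VIM, the intermediate filament of mesenchymal and dedifferentiated cells, was just under 2-fold, at 3968 and 1987 (log2 0.96). The 5 members below 0 had small ratios, the lowest at -0.21. They included CLU at -0.03, KRT7 at -0.17 and LCN2 at -0.07, whose intensities of 86.4 and 95.3 were close to the array medians.

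Collagens and other matrix genes were mostly higher. Among 19 detected collagens 17 had a ratio above 0 and 5 were 2-fold higher, with a median of 0.45. The fibrillar chains COL1A1 and COL1A2 read 727 and 1704 on high sodium in HSLC, against 243 and 623 on low sodium, log2 ratios of 1.48 and 1.38. The basement membrane chain COL4A1 had a log2 ratio of 1.18, with intensities of 5458 on high and 2259 on low sodium, while COL4A5 stood at -0.13. The microfibrillar chains COL6A1, COL6A2 and COL6A3 had ratios of 1.06, 0.85 and 1.41. Of 29 detected matrix glycoproteins and crosslinking genes 26 lay above 0 and 5 were 2-fold higher. These were the proteoglycans VCAN (log2 1.31) and DCN (1.08, with 0.02 and 0.89 on its other 2 detected probes), the calcification inhibitor MGP (1.26), THBS2 (1.16) and AEBP1 (1.05). TNC, a glycoprotein of wounds, read 294 and 151, a log2 ratio of 0.91.

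The proteases that remodel matrix and their inhibitors were spread more widely, with 13 of 20 above 0, 4 of them 2-fold higher, and a median of 0.11. TIMP1, the inhibitor of metalloproteases, read 2463 in HSLC on high sodium and 746 on low sodium, 3.13-fold higher, and 2033 and 629 in NSLC. The cystatin CST6 had a log2 ratio of 1.39 on its brighter probe and 0.07 on its other detected probe, and the metalloprotease ADAMTS1 had one of 1.18. PLAU, the urokinase plasminogen activator, read 3452 and 1709.7 (log2 0.97). MMP9, the gelatinase carried by neutrophils among other cells, was detected on 1 of the HSLC arrays, at 216 on high sodium, and read 63.3 on low sodium, below the array median, which makes it at least 2.999-fold higher. It was the only gene outside the muscle lists whose lower bound reached 2-fold in that direction. TIMP3 and TIMP4 stood near 0, and CTSL at -0.32.

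Lists that mark the cells which make matrix stood higher beside these values. In a whole biopsy more cells of a type and more RNA per cell cannot be told apart, nor can fewer cells and less RNA. The fibroblast list had 10 of 14 genes above 0, 3 of them 2-fold higher, with a median ratio of 0.22 in HSLC and 0.60 in NSLC. Its summed intensity was 23622 on high and 12599 on low sodium in HSLC. That sum leans on bright members, with DCN alone at 7999 and 3625. SFRP2, a secreted WNT modulator, read 375 and 106 (log2 1.79), and the matrix protein FBLN1 read 3234 and 1101 (log2 1.47, with 0.03 to 1.58 on its other detected probes). The smooth muscle and pericyte list had 10 of 12 above 0 (7 to 10 under other scalings) and a median of 0.30. It was led by the contractile proteins ACTG2 (675 and 263, log2 1.27), ACTA2 (0.92), TAGLN (0.77) and MYH11 (0.71). The endothelial list stood near 0, with 10 of 18 above it and a median of 0.02, although VWF, the clotting factor carrier, read 736 and 381 (log2 0.82). The part of these cell types in the matrix values was not tested. Of the TGF beta genes, 16 of 22 lay above 0 (11 to 18 under other scalings), with a median of 0.05. The ligand TGFB2 alone was 2-fold higher, at 207 on high and 91.6 on low sodium (log2 1.19). SMAD3, SMAD4, TGFBR1 and TGFBR2 lay between -0.19 and -0.02.

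**Figure D2:**
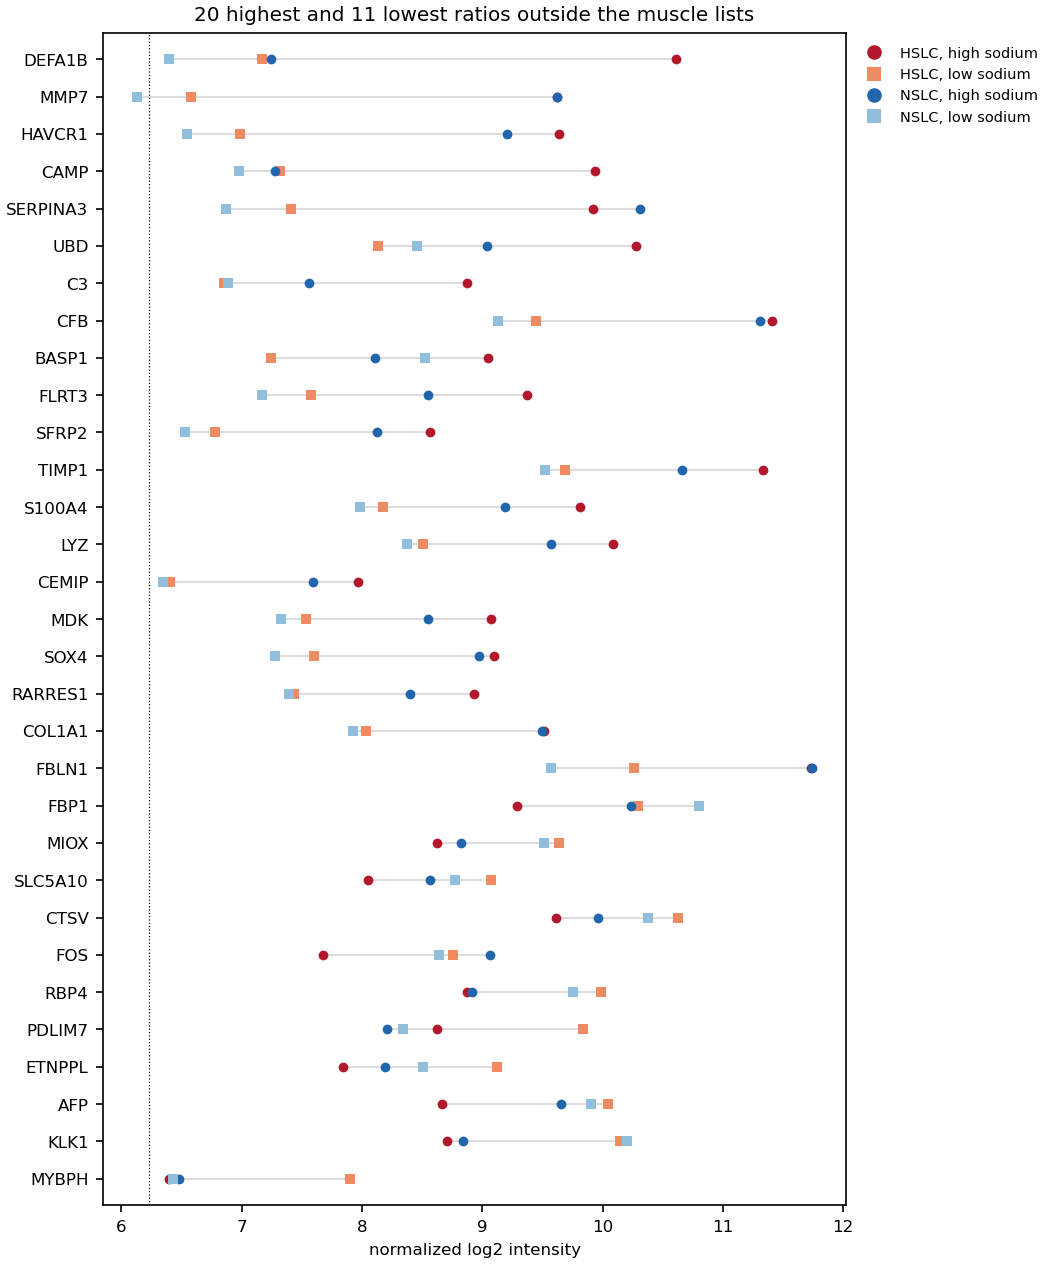
Normalized log2 intensity on each of the 4 arrays (horizontal axis) for the 20 genes with the highest and the 11 with the lowest HSLC diet ratio outside the muscle lists, from highest ratio at the top to lowest at the bottom, with the dotted line at the array median. MMP7, HAVCR1, SERPINA3 and CFB are high on both high sodium arrays, DEFA1B and CAMP are high on the HSLC high sodium array alone, and MYBPH is high on the HSLC low sodium array alone.

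Of the acute phase proteins, SERPINA3, C3 and CFB were 2-fold higher, and most complement genes stood above 0. SERPINA3, an inhibitor of neutrophil proteases, read 958 in HSLC on the high sodium diet and 159.6 on the low sodium diet (log2 2.51), and 1600.3 and 119 in NSLC. C3, the central complement protein, read 466 and 111 in HSLC, 4.06-fold higher, against 216 and 119.7 in NSLC (log2 0.68). CFB, the protease of the alternative pathway, read 2603 and 635 in HSLC (log2 1.97). Of 20 detected complement genes 18 were above 0 and 3 were 2-fold higher, the third being the classical pathway protease C1R (log2 1.03, with 0.02 and 0.87 on its other 2 detected probes), and its partner C1S stood at 0.87. C1QA and C1QC, made by macrophages, had ratios of 0.83 and 0.97. Of 17 acute phase genes 11 were above 0 and the median was 0.04, which lay between -0.02 and 0.04 under other scalings, with SERPINA1 at -0.05, ALB at -0.64, and RBP4, the retinol carrier, at -1.12 from 465 on high and 911 on low sodium.

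Some neutrophil granule transcripts were high on the HSLC high sodium array and lower on the other 3. DEFA1B, an alpha-defensin, read 1513 in HSLC on the high sodium diet and 138 on the low sodium diet, against 169 and 86.6 in NSLC. Its 10.9-fold ratio was the highest in HSLC outside the muscle lists, and a further detected probe of the gene had a log2 ratio of 1.73, though probes of near-identical defensin genes can share signal. CAMP, the cathelicidin precursor, read 967 and 150.1 in HSLC (log2 2.62), and 174 and 127 in NSLC. The myeloperoxidase gene MPO read 158 and 75.2 (log2 1.09), and the bactericidal protein BPI read 195 and 123 (log2 0.66), with NSLC ratios of -0.02 and -0.11. MMP9, also of this list, read 216 in HSLC on high sodium. It read 63.3, 83.2 and 68.2 on the HSLC low, NSLC high and NSLC low sodium arrays. Other members did not follow: the elastase ELANE stood at -0.15, PGLYRP1 at -0.06 and OLFM4 near 0. Of the 14 genes detected on both HSLC arrays, 10 were above 0 (6 to 11 under other scalings). Their median was 0.06 (-0.02 to 0.07 under other scalings). Of 24 list genes on the array, 8 were detected on neither HSLC array. The erythroid list had a median of -0.10, with HBB at -0.22, but AHSP, the alpha-globin chaperone of red cell precursors, read 180.1 in HSLC on high sodium, and 79.3, 76.9 and 84.9 on the HSLC low, NSLC high and NSLC low sodium arrays. Whether these transcripts came with blood or from tissue was not tested.

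Macrophage and antigen presentation genes stood mostly above 0. All 20 detected genes of the monocyte and macrophage list had a ratio above 0 (17 to 20 under other scalings), with a median of 0.60 and 2 at 2-fold or more. LYZ, the bactericidal lysozyme, read 1069 and 334 on high and low sodium in HSLC (log2 1.58) and 952 and 291 in NSLC. CSF1R, the receptor that macrophages need to survive, read 1360.0 and 699 (log2 0.86), and the signalling adaptor TYROBP read 263 and 139 (log2 0.89). Of the class II genes, 10 of 12 were above 0 with a median of 0.64, and HLA-DRA, HLA-DPA1 and HLA-DRB4 were 2-fold higher, at log2 1.24, 1.09 and 1.01, although the other detected probe of HLA-DRB4 stood at -0.14. HLA-DRA read 1856 and 746 in HSLC, and 1680.0 and 780.1 in NSLC. The class II genes share near-identical copies, and human probes for DRB4 may bind other baboon DRB transcripts. All 16 class I and immunoproteasome genes were above 0 under every scaling tried, none 2-fold, led by HLA-F (0.97), the proteasome subunits PSMB10 (0.76) and PSMB8 (0.74), HLA-E (0.73) and the peptide transporter TAP1 (0.68).

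Interferon induced genes were divided. UBD, a ubiquitin-like modifier induced by interferon gamma and TNF, read 1217 in HSLC on the high sodium diet and 260.2 on the low sodium diet (4.41-fold), and 652 and 308 in NSLC. CXCL10, a T cell attractant, read 451 and 181 (log2 1.23), and the GTPase GBP2 read 442 and 185 (log2 1.17), with a NSLC ratio of 0.19. IRF1, which turns on class I genes, stood at 0.66. ISG15, the ubiquitin-like protein of the type I response, lay the other way at 417 on high and 669 on low sodium (log2 -0.82), and OAS1 was at -0.41, OAS2 at -0.19 and IFI27 at -0.15. In all, 15 of 22 were above 0 and 3 were 2-fold higher. The T and NK cell list had 15 of 19 above 0 (11 to 16 under other scalings) and a median of 0.08. In it CD8A read 275 and 145 (log2 0.89), and CD2 stood at 0.83 and GZMA at 0.82. CD3E, by contrast, stood at -0.01 and CD4 at -0.04. The B cell list was near 0, with a median of 0.05. Of the inflammation mediators, LTB, which organises lymphoid tissue, was the single gene 2-fold higher, at 231 and 97.9 (log2 1.25).

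Genes of the proximal tubule stood lower on high sodium. All 36 detected genes of the identity list had a ratio below 0 under every scaling tried, with a median of -0.52 and a range from -1.12 to -0.08, and RBP4, MIOX and FBP1 were 2-fold lower, 3 of 36 against 0.0886% of all genes. Under the scaling that moved each most, these 3 had ratios of -0.94, -0.85 and -0.83, short of 2-fold. Both high sodium arrays were below both low sodium arrays for 25 of the 36, against 26% of all genes, and the NSLC median was -0.26. MIOX, which starts the breakdown of myo-inositol, read 391 in HSLC on high sodium and 721 on low sodium (log2 -1.02). SLC5A10, a sodium-coupled carrier of mannose and fructose outside the list, read 258 and 487 (log2 -1.02), while its other 2 detected probes had ratios of -0.47 and -0.20. Lists of other segments went different ways. The loop of Henle list had 8 of 12 above 0 and a median of 0.24. Medians were -0.02 for the podocyte list and 0.03 for the principal cell list. Intercalated cell genes were also mostly lower, with 3 of 12 above 0 and a median of -0.28 (-0.35 in NSLC). So were genes of the connecting tubule and distal convoluted tubule, with 2 of 15 above 0 and a median of -0.10. The share of cortex and medulla in each biopsy was not tested.

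The sodium-coupled carriers of the proximal tubule were also mostly lower. Of 18 detected, 16 were below 0, none was 2-fold lower, and the median was -0.43. SLC34A1, the main phosphate carrier, read 567 in HSLC on high sodium and 912 on low sodium (log2 -0.83), and 1547 and 1229.6 in NSLC, where the normalized ratio was -0.21. The dicarboxylate carriers SLC13A3 and SLC13A2 had ratios of -0.82 and -0.68, the basolateral bicarbonate carrier SLC4A4 one of -0.63 and the glucose carrier SLC5A2 one of -0.39. The membrane carbonic anhydrases CA4 and CA12, which feed bicarbonate recovery, stood at -0.76 and -0.64, and the scaffold NHERF1 at -0.52. The housekeeping phosphate carriers SLC20A1 (0.06) and SLC20A2 (-0.05) were near 0. Carriers of organic anions and cations had 2 of 23 above 0 and a median of -0.41, and the lowest included SLC22A8 (-0.85), which takes up drugs and organic anions from blood, the urate exchanger SLC22A12 (-0.83) and SLC17A3 (-0.82). SLC22A12 read 759 and 1229.9 in HSLC, and 1911 and 1324 in NSLC, where its ratio was near 0. Of 21 amino acid carriers 6 were above 0, with SLC36A2 and SLC6A18, which recover proline and glycine, at -0.95 and -0.93, and SLC38A2, a carrier of amino acid starvation, at 0.38.

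Metabolic genes that serve this segment were mostly lower. Gluconeogenesis and fructose metabolism had the lowest median of the kidney lists shown, -0.61, with 2 of 13 above 0. FBP1, fructose bisphosphatase, read 622 in HSLC on high sodium and 1126 on low sodium (log2 -1.01), and PCK1 and PCK2, the carboxykinases, stood at -0.68 and -0.85. Of 32 fatty acid oxidation and peroxisome genes 3 were above 0 and the median was -0.39, with the peroxisomal oxidase HAO2 at -0.89, catalase (CAT) at -0.86 and ACADS at -0.63. Amino acid and glycine metabolism had 2 of 25 above 0 and the same median, and its lowest members were AGXT, which clears glyoxylate (1405 and 2548, log2 -0.98), PRODH2, which breaks down hydroxyproline (-0.94), and HPD of tyrosine breakdown (-0.75). The respiratory chain lay closer to 0, with 7 of 45 above 0, a median of -0.14 and a lowest ratio of -0.34. Glycolysis stood at a median of 0.07, in which PFKP (0.96) and ENO2 (0.75) were higher and ALDOA (-0.43) and GAPDH (-0.37) lower, though ALDOA and GAPDH are also abundant in muscle.

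**Figure D3:**
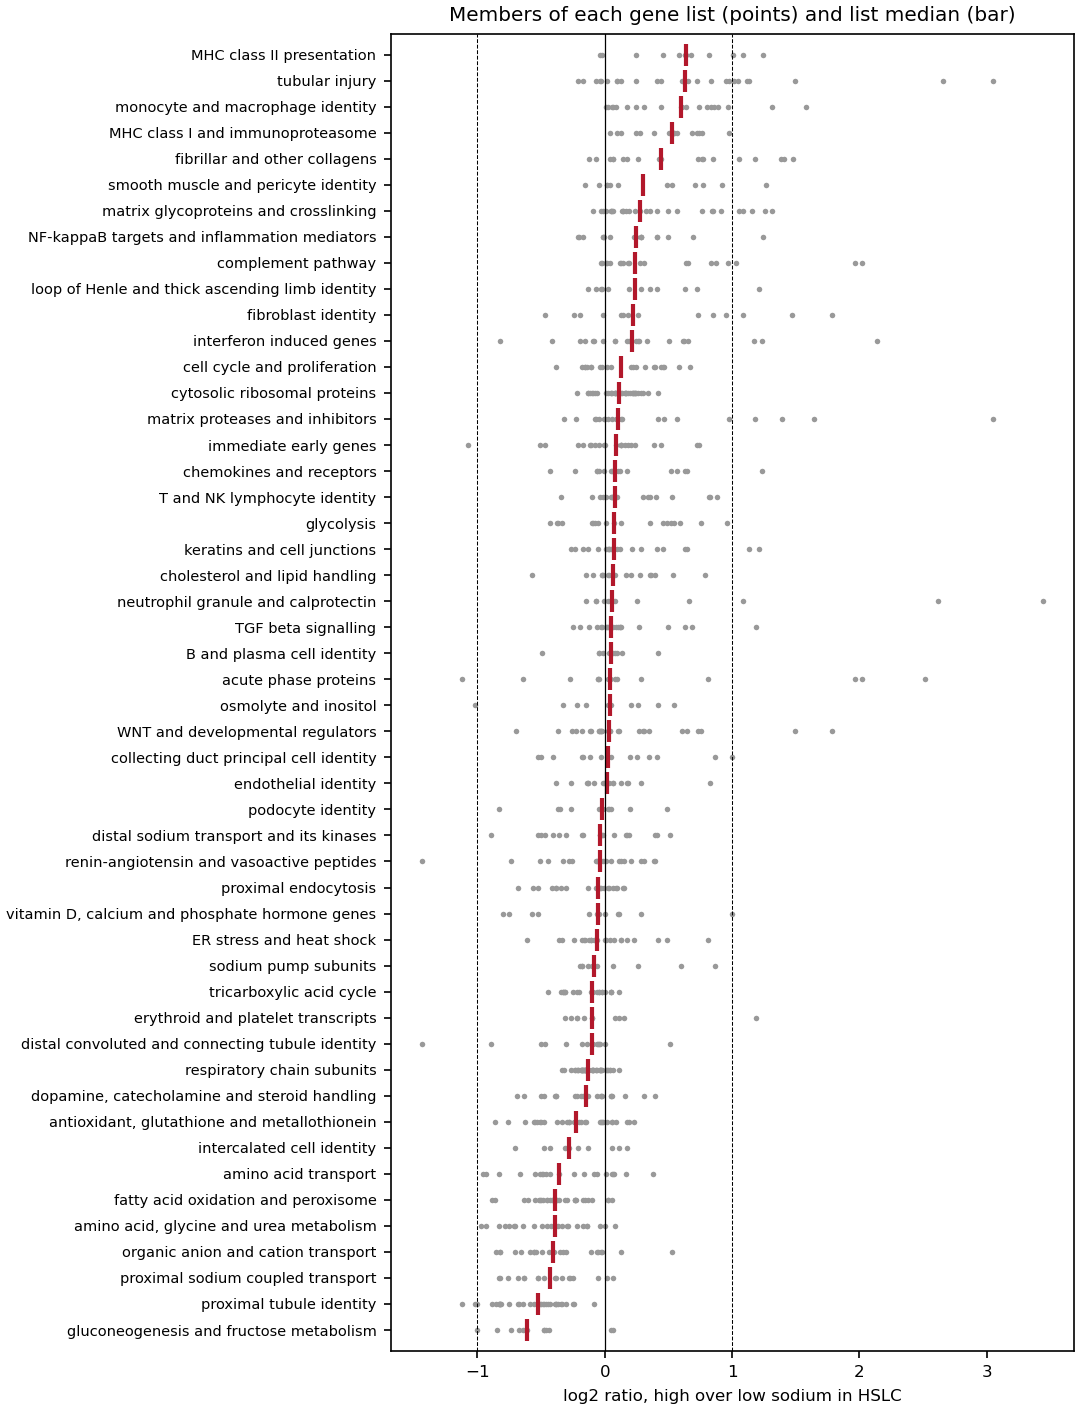
Log2 ratio of high over low sodium in HSLC (horizontal axis) for the detected members of each gene list outside skeletal muscle (grey points) and the list median (red bar), lists sorted by median and those with under 5 detected genes left out, with dashed lines at 2-fold. Class II, tubular injury and macrophage lists have the highest medians, between 0.60 and 0.64, and the proximal tubule, its carriers and gluconeogenesis the lowest, between -0.61 and -0.41.

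Sodium handling beyond the proximal tubule had ratios on both sides of 0. Of 21 detected genes 7 were above 0, none reached 2-fold, and the median was -0.04 (-0.10 to 0.08 under other scalings). SLC12A3, the thiazide-sensitive sodium chloride carrier, read 375 in HSLC on the high sodium diet and 641 on the low sodium diet, and 422 and 635 in NSLC, so both high sodium arrays lay below both low sodium arrays (log2 -0.89 in HSLC). SLC12A1, the furosemide-sensitive carrier, read 213 and 182 in HSLC (log2 0.19), against 461 and 167 in NSLC (log2 1.11). The channel subunits SCNN1A, SCNN1B and SCNN1G had ratios of -0.40, -0.17 and -0.52, and the potassium channel KCNJ1 one of 0.41. Among the regulators, the kinase STK39, which phosphorylates these carriers, stood highest (0.52), KLHL3, which marks WNK kinases for breakdown, was at -0.47, WNK1 at -0.30 and WNK4 at -0.18. HSD11B2, which shields the mineralocorticoid receptor from cortisol, was at -0.50, the aldosterone-induced kinase SGK1 at -0.36, and the receptor itself (NR3C2) at -0.03. Of 10 sodium pump subunits detected, FXYD4 of the collecting duct had the largest ratio, with 190.1 and 105 in HSLC (log2 0.86) and 302 and 82.5 in NSLC. FXYD5 stood at 0.60, ATP1B1 at 0.07 and FXYD2 at -0.10.

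KLK1, tissue kallikrein, which the connecting tubule secretes and which frees kinins, was the 1 gene of the 11 that was also 2-fold lower in NSLC. It read 414 in HSLC on the high sodium diet and 1015 on the low sodium diet (log2 -1.44), and 571 and 1009 in NSLC (log2 -1.36). Its substrate KNG1 read 3058 and 2183 in HSLC, the opposite way (log2 0.39), and the kinin receptor BDKRB2 stood at 0.12. The peptidases of the brush border that cut angiotensins and other peptides were lower, with ENPEP at -0.74, MME at -0.51 and ANPEP at -0.45, while ACE at -0.28, AGT at -0.04 and the receptor AGTR1 at -0.05 had intensities close to the array medians. EDN1, the vasoconstrictor endothelin, read 204 and 153 (log2 0.39). Of the 24 detected genes of this group 10 were above 0 and KLK1 alone was 2-fold lower. In the dopamine, catecholamine and steroid group 6 of 22 were above 0 and none reached 2-fold, with DDC, which makes dopamine in the proximal tubule, at 4914 and 6240.3 (log2 -0.39), and the epoxide hydrolase EPHX2 and the arachidonate hydroxylase CYP4A11 at -0.69 and -0.48.

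Antioxidant and early response genes had ratios in HSLC that were unlike those in NSLC for several members. Of 30 antioxidant genes 7 were above 0, with a median of -0.22 in HSLC and 0.02 in NSLC. The metallothioneins, which bind zinc and copper, read lower on high sodium in HSLC: MT1F 104 and 162, MT1G 394 and 518, and MT1X 4652 and 6570.4. In NSLC, MT1F read 694 on high and 216 on low sodium, and MT1G 1088 and 497. GPX3, the secreted peroxidase of the proximal tubule, stood at -0.76 in HSLC and 0.12 in NSLC, and SOD1 at -0.56 and 0.03. The immediate early gene FOS read 197 on the high and 392 on the low sodium array of HSLC, and 667 and 344 in NSLC, log2 ratios of -1.07 and 0.43. ATF3 had ratios of 0.13 in HSLC and 1.93 in NSLC, and ZFP36, which destabilises cytokine mRNA, -0.47 and 0.79. Median ratios of the early response list were 0.09 in HSLC and 0.22 in NSLC. The differences between the phenotypes were not tested.

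Several genes past 2-fold belonged to none of the lists. BASP1, a membrane-bound protein that also acts as a partner of WT1, read 524 in HSLC on the high sodium diet and 144 on the low sodium diet (log2 1.80), while the NSLC arrays read 329.7 and 318 on high and low sodium, with a normalized ratio of -0.41. Here the HSLC low sodium array was the odd one, below both NSLC arrays. FLRT3, an adhesion protein, read 656 and 179.5, S100A4, a calcium-binding protein of motile cells, 896 and 268, and CEMIP, which degrades hyaluronan, 241 and 81.6. The growth factor MDK had a log2 ratio of 1.54 from its brighter probe and -0.02 from its other detected probe, and RARRES1, a retinoid-responsive gene, one of 1.49. Outside the muscle lists, S100A4 and DEFA1B were the genes whose detected probes, 2 or more, all passed 2-fold. On the low side AFP, alpha-fetoprotein, read 403 and 948 in HSLC and 1008 and 818 in NSLC (normalized ratio -0.25), so the HSLC high sodium array was below the other 3. ETNPPL, a phospholipid enzyme, read 222 and 505 (log2 -1.28), and CTSV, a lysosomal protease, 778 and 1427 (log2 -1.02). Genes of cell division, ribosomes, the endoplasmic reticulum and lipid handling had list medians between -0.06 and 0.13, with no member at 2-fold. In the cell division list NUSAP1 (0.67) and TOP2A (0.59) stood highest, whereas MKI67 was at -0.18 and PLK1 at -0.39.

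**Figure D4:**
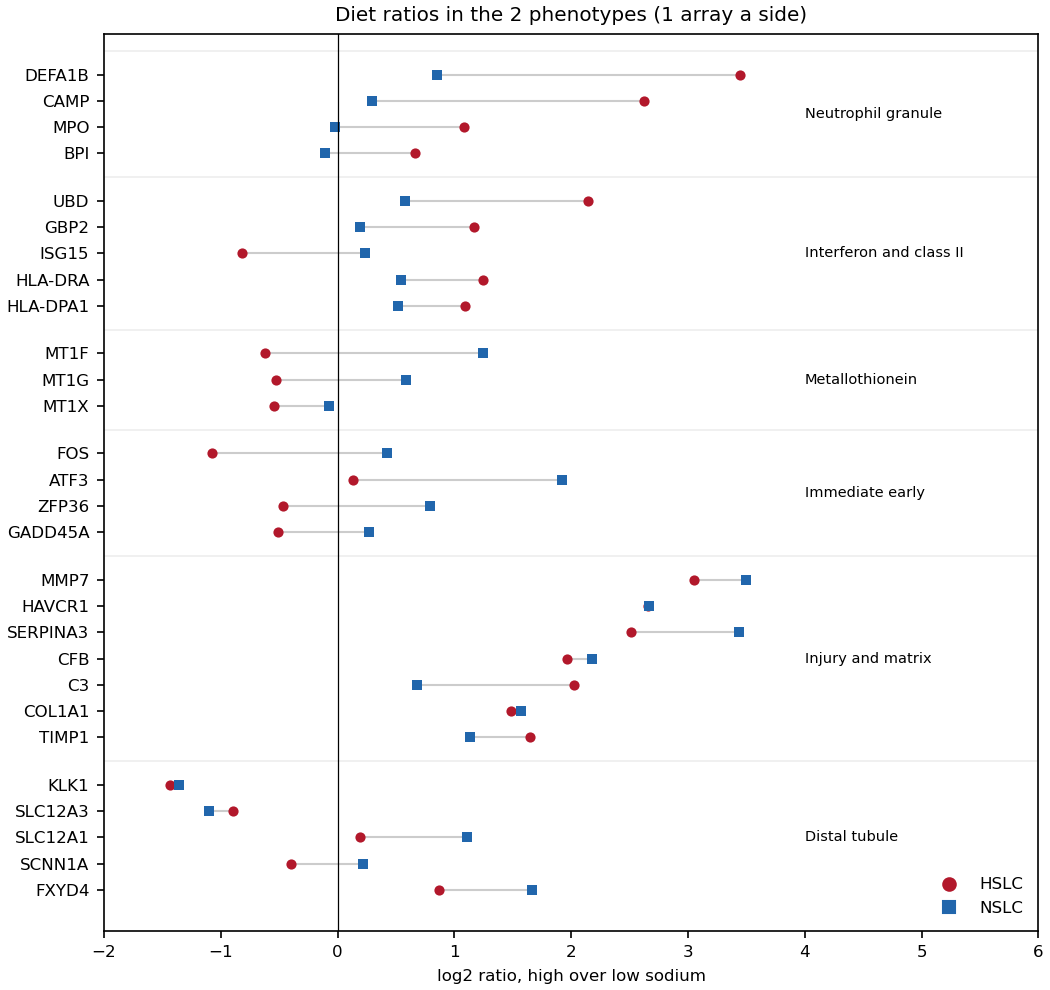
Log2 ratio of high over low sodium (horizontal axis) in HSLC (red circles) and in NSLC (blue squares) for named genes of 6 groups, 1 array on each side of every ratio. HAVCR1, COL1A1 and KLK1 have close values in both phenotypes, while DEFA1B, CAMP and UBD are larger in HSLC and the metallothioneins and FOS have lower values in HSLC than in NSLC.

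The 66 genes 2-fold higher in HSLC had a wide range of ratios in NSLC. For the 64 detected on both NSLC arrays these ranged from -0.41 to 3.44 with a median of 1.02. For 11 of the 66 the NSLC ratio was within 1.5-fold of equality, and these included CAMP, UBD, BASP1, AHSP, GBP2, MPO, HLA-DRA and HLA-DPA1. For 8 of the 11 lower genes it was also within 1.5-fold, among them MYBPH, AFP, ETNPPL, PDLIM7, FOS and FBP1. Over all 12191 genes detected on both NSLC arrays, 281 were 1.5-fold or more higher and 220 lower, so most genes lay within 1.5-fold. COL1A1 stood at 1.48 in HSLC and 1.57 in NSLC, FBLN1 at 1.47 and 2.17, and TIMP1 at 1.64 and 1.13. Over all genes outside the muscle lists, both high sodium arrays were above both low sodium arrays for 31.1%. In the tubular injury list that held for 19 of 25 genes detected on all 4 arrays, in the matrix glycoprotein list for 24 of 28, in the collagens for 15 of 19, and in the macrophage list for 16 of 20.

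The skeletal muscle genes formed a separate pattern, in which every gene past 2-fold was lower on high sodium. Of 113 genes on the array 61 were detected on both HSLC arrays, 0 were 2-fold higher and 18 were 2-fold lower, with a median of -0.51 and 4 above 0. A further 15, judged by the probe with the highest mean signal, were detected on low sodium alone and were at least 2-fold lower by their bound. The NSLC median of these lists was -0.08, and 1 of 59 genes was 2-fold lower there. TNNC2, troponin C of fast fibres, read 70.4 in HSLC on the high sodium diet and 1989 on the low sodium diet, and 86.4 and 307 in NSLC. CKM, muscle creatine kinase, read 159 and 3538 in HSLC (23.3-fold lower), and 207 and 243 in NSLC. The HSLC low sodium array was the highest of the 4 for both genes, with the NSLC low sodium array next. Whether that biopsy held muscle was not tested.

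Both fast and slow fibre genes took part. Of the fast set, MYL1 had a log2 ratio of -4.65 and ACTN3 one of -2.58, and MYH2 was at least 16.7-fold and TNNT3 at least 21.5-fold lower. Of the slow and cardiac set, MYL2 stood at -3.61, MYL3 at -2.51 and TNNC1 at -2.28, and MYH7 was at least 21.2-fold lower. MB, the oxygen store myoglobin, read 61.3 on high and 1717 on low sodium, at least 25.1-fold lower, and MYBPC1, a myosin-binding protein, was at least 12.2-fold lower on its brightest probe, while another probe of it, detected on both HSLC arrays, had a log2 ratio of -1.30. The Z disc proteins MYOZ1, TCAP, PDLIM3 and NRAP had ratios of -2.83, -2.49, -1.86 and -1.64. EEF1A2, which elongates proteins in muscle and nerve cells, and ENO3, muscle enolase, stood at -3.86 and -3.34.

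Not all listed genes followed. CRYAB, a chaperone that kidney also makes in quantity, read 6604 and 6062 (log2 0.08), and LMOD3 stood at 0.24, with ASB2 and STYXL2 near 0. Probes of a gene also differed: the further detected probe of MYL1 had a ratio of -0.65 and that of ENO3 one of -0.12. MYBPH, PDLIM7 and DHRS7C are outside the muscle lists and so are counted with the kidney genes, although muscle is known to express them. MYBPH read 77.2 on the high and 221 on the low sodium array of HSLC, and 95.2 and 88.8 in NSLC, the pattern of the muscle genes. PDLIM7 read 392 and 830.3 in HSLC, and 355 and 285 in NSLC (log2 -1.22 and -0.13, and -0.44 in HSLC on its other detected probe), and DHRS7C was at least 3.32-fold lower. With NSLC on low sodium as the base, 2 muscle genes in place of 18 were 2-fold lower.

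**Figure D5:**
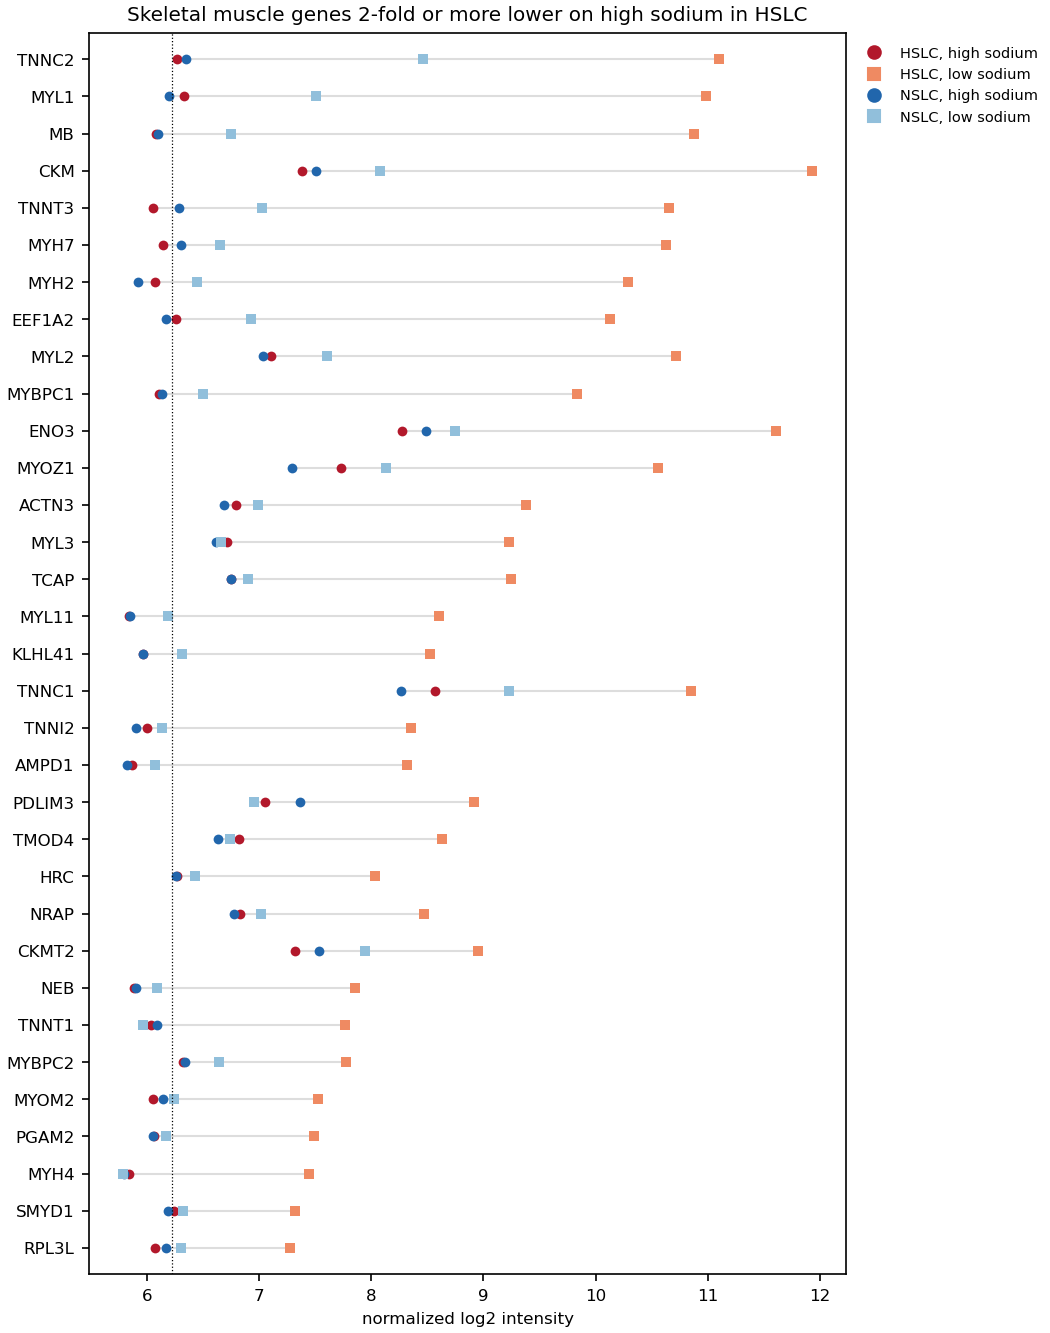
Normalized log2 intensity on each of the 4 arrays (horizontal axis) for the 33 skeletal muscle genes that were 2-fold or more lower on high sodium in HSLC, by ratio or by bound, with the dotted line at the array median. The HSLC low sodium array lies to the right of the other 3 for every gene.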

How the data were processed

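Total RNA of kidney biopsies was cleaned, labelled with Cy3 and hybridised to Illumina bead arrays, per the labels' protocols. The deposited values are linear signal intensities for 48702 probes per array, and BeadStudio (no version) is the tool that the submitters' processing notes name. How the authors treated background, scaling and pooling is not stated in the labels or headers. Neither detection p-values nor bead counts come with the intensities, so the number of arrays limits the precision and no interval can be given.

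From these intensities, 1 probe at 0 was left out, background was corrected by normexp (offset 50), and the 4 arrays were quantile-normalized and put on the log2 scale (limma 3.58.1, R 4.3.3). The deposited series matrix, a second table of intensity values for the same arrays, served as an alternative. A single gene symbol in the platform annotation was found for 23687 probes, and each of 18774 genes was taken from its probe with the highest mean signal. A gene detected on 1 HSLC array alone got a bound, for which the lower array was set to its median, or to its own value if higher. The offset draws ratios of dim genes towards 0: of the 3105 dimmest genes outside muscle, 0 reached 2-fold. Probes were designed on human sequence, and which of them match baboon was not used here.

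Genes were named by rule: outside the 3 muscle lists the 20 highest and 20 lowest HSLC ratios and the 8 largest bounds each way. For muscle these were the 15 lowest ratios and 5 largest bounds. Each of the 54 lists gave up to 6 members with the largest ratios in size and those opposite to its median, every detected gene of 4 sodium-handling lists was taken, and so was any gene whose detected probes, 2 or more, all passed 2-fold. The comparison, the lists and the size rule were chosen with earlier results of these data known. Lists are described by counts and medians and some share genes. The steps were tested on simulated data with planted changes. Alternatives were other normalizations, offsets, detection rules and probe summaries, the series matrix and 1.5-fold, and, added after seeing the data, the NSLC low sodium array as the base. No sequences were used.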

Additional observations from a re-analysis of the deposited data

Results flagged for a closer look

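Probes without a gene name lie outside the comparison by gene. Of 24979 such probes 8844 were detected on both HSLC arrays. Of these, 7 (0.0791%) were 2-fold or more higher on high sodium and 5 (0.0565%) were 2-fold or more lower. Both shares were below those of the named genes outside the muscle lists, 0.531% and 0.0886%. The units differ, since a named gene counts once, by its brightest probe, while every unnamed probe counts. The identity of the unnamed probes was not analysed here.

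MT1F, a metallothionein, had a log2 ratio of -0.62 in HSLC and 1.25 in NSLC, so the diets stood in opposite order in the 2 phenotypes, each past 1.5-fold. The difference was not tested.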

How the results depend on the processing

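No paired analysis was possible because each group has 1 array, and for the same reason no array could be left out. Outside the muscle lists, the 11 genes lower on high sodium in HSLC became 5 with no normalization and 5 with median scaling, 7 with the series matrix values normalized and 7 with them as deposited, and 140 at 1.5-fold. The 66 higher genes became 119 with an offset of 16 and 285 at 1.5-fold, in all genes and outside the muscle lists alike. With the NSLC low sodium array as the base they became 106 in both, and the lower genes 53 in all and 51 outside the muscle lists, with 2 muscle genes lower in place of 18. Without the detection filter 46 genes were lower in all and 34 of the muscle lists, and at 1.5-fold 167 were lower in all. In NSLC, over all genes, 62 higher and 19 lower became 243 and 2 with no normalization, 199 and 3 with median scaling, 117 and 47 with an offset of 16, and 281 and 220 at 1.5-fold, with 41 higher under the series matrix values normalized and 12 lower under them as deposited. The cause of these moves was not tested, apart from the rules of size and detection that were themselves changed. Of the 66 higher genes 57 kept 2-fold under each of the scalings tried, as did 5 of the 11 lower ones. For 9 of 51 lists outside muscle, with medians from -0.06 to 0.06, the median changed sign with the scaling. With the NSLC low sodium array as the base the ratio turned for PDLIM7 (0.28), MYL3 (0.053), PDLIM3 (0.10) and TMOD4 (0.083), all high on the HSLC low sodium array. Signal close to background limits the ratios of dim probes. Among 1475 genes with 2 or more detected probes, 14 were 2-fold on the brightest probe and 3 of these, S100A4, DEFA1B and FBLN1, also on the next brightest, with 12 of the same sign.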

Other observations

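Genes of mineral hormones lay on both sides of 0 on high sodium in HSLC. The vitamin D receptor VDR read 154 on high and 261 on low sodium (log2 -0.80), CYP27B1, which makes active vitamin D, read 746 and 1134 (log2 -0.75), and the parathyroid hormone receptor PTH1R stood at -0.52. The phosphate-regulating hormone STC1 read 455 and 213, just under 2-fold higher. The list as a whole had 5 of 13 detected genes above 0 and a median of -0.05.

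Genes of WNT signalling also lay on both sides, with 15 of 28 above 0. The transcription factor LEF1 stood at 0.76 and the feedback gene AXIN2 at 0.65, while the secreted inhibitor SFRP1 read 3044 on high and 1746 on low sodium in HSLC and its relative FRZB read 1437 and 2161, log2 ratios of 0.73 and -0.70. Of the endocytic receptors of the proximal tubule, CUBN stood at -0.68 and LRP2 at -0.38, within a list whose median was -0.05. SLC5A3, the inositol carrier that cells use against hypertonicity, stood at 0.54, against 0.83 in NSLC.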
